A study of Mus musculus with 16 samples.

Results

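The Bcl2 family of apoptosis regulators was followed in the transcriptomes of neural stem/progenitor cells (NSPCs) carrying a *Dbx2* transgene. Its members were taken by gene symbol: 10 genes, all of them found among the 30386 genes of the deposited table. Means are given ± SD over the 8 samples of a group. The family comprises 3 pro-survival genes (*Bcl2*, *Bcl2l1* and *Mcl1*), 2 effectors (*Bax* and *Bak1*) and 5 BH3-only genes (*Bcl2l11*, *Bbc3*, *Bad*, *Bid* and *Pmaip1*). The cells were NSPCs derived from the subventricular zone, the neurogenic layer along the lateral ventricles, of mice of 3 months of age, and were grown in non-adherent culture. *GFP*-NSPCs (n = 8) carried a control *GFP* transgene and *Dbx2*-NSPCs (n = 8) a *Dbx2* transgene. Both were constitutively expressed from plasmids and selected with puromycin, so that both groups had passed through transfection and selection. The samples of each group carry replicate numbers 1 to 8. Per the study's methods the transgenic lines came as 2 pairs from independent derivations, but the labels do not say which sample came from which pair, so p-values measure the spread between cultures of few lines.

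The family controls the mitochondrial route to apoptosis. Effector proteins permeabilise the outer mitochondrial membrane and let cytochrome c out, pro-survival proteins hold the effectors in check, and BH3-only proteins, named after the short helix they share with the rest of the family, are made or unmasked under stress and either occupy the pro-survival proteins or act on the effectors. In the adult subventricular zone this machinery limits the number of cells that the neurogenic lineage yields. *Bcl2l1* encodes Bcl-xL, *Bcl2l11* encodes Bim, *Bbc3* encodes Puma and *Pmaip1* encodes Noxa.

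Of the 10 members, 3 rose in *Dbx2*-NSPCs and 0 fell. The pro-survival gene *Bcl2l1* rose 1.85-fold, and the BH3-only genes *Bcl2l11* and *Bbc3* rose 2.0-fold and 1.59-fold. *Bbc3* did not pass within the samples numbered 5 to 8 (limma adjusted p = 0.228), and with the share of mitochondrial reads, which moved with the groups, as a covariate *Bcl2l11* (0.0535) and *Bbc3* (0.180) did not pass while *Bcl2l1* did (0.0213). The other pro-survival genes, both effectors and the BH3-only genes *Bad*, *Bid* and *Pmaip1* did not pass the test. *Bcl2*, which gave the family its name, showed a fold change that differed between the samples numbered 1 to 4 and those numbered 5 to 8. That difference was called for 1 of the 10 members, a share near the 9.44% of all tested genes (limma interaction). The test was limma's moderated test of log2(CPM + 0.5) (CPM, reads of a gene scaled to a common library total), with Benjamini-Hochberg adjustment over the 12533 genes that exceeded 1 CPM in 4 or more of the 16 samples. A gene was called at an adjusted p under 0.05, all 10 members were tested, and fold changes are on the log2(CPM + 0.5) scale. Over all tested genes, 15.8% were called, 8.03% higher and 7.78% lower in *Dbx2*-NSPCs. For 0 of the 10 members were the 8 samples of one group all above the 8 of the other, which held for 3.41% of all tested genes (1.6% higher and 1.81% lower). The median log2 fold change was 0.12 over the 3 pro-survival genes, 0.07 over the 2 effectors and 0.13 over the 5 BH3-only genes, against -0.022 over all tested genes. RNA was taken from bulk cultures, in which a change in the share of cells of one kind and a change in RNA per cell cannot be told apart.

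The regions before the start sites of the 3 members that rose, and of *Bcl2*, are shown because these are the members called over all samples or in a set of them. Each is the 250 bases before a RefSeq start site, from RefSeq on GRCm38.p6, 5′ to 3′ on the strand of the gene. Of several starts, the most upstream one whose window holds no annotated exon was taken. Reads in these libraries come from the end of the transcript, so they do not tell which start was used. Capitals mark the GC box GGGCGG, bound by Sp1-type factors, and the CCAAT box, on either strand.
Bcl2l1: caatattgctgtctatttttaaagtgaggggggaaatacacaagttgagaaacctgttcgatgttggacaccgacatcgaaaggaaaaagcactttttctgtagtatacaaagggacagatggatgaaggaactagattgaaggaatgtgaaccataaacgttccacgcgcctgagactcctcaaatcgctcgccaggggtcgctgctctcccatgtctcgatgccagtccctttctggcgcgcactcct
Bcl2l11: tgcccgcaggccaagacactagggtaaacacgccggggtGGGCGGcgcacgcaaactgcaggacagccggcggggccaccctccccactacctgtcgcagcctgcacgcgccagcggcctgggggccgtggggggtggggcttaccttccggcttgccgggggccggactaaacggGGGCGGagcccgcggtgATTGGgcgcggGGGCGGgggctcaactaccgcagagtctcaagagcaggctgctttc
Bbc3: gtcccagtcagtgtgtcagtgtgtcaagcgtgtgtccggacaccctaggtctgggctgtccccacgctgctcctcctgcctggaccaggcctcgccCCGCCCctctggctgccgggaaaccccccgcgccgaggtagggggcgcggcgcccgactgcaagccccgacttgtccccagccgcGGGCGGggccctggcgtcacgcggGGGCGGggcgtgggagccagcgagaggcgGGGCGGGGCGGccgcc
Bcl2: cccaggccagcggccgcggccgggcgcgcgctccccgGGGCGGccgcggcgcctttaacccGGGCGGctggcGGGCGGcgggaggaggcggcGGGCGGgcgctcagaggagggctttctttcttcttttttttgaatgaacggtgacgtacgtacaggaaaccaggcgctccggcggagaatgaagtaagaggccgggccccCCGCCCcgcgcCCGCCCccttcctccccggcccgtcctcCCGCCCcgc
The windows lie at chr2:152831729-152831978 (minus strand) for *Bcl2l1*, chr2:128125788-128126037 (plus strand) for *Bcl2l11*, chr7:16309333-16309582 (plus strand) for *Bbc3* and chr1:106714291-106714540 (minus strand) for *Bcl2*. The *Bbc3* window lies inside the span that GENCODE gives the gene, past its outermost start and in no annotated exon, because the RefSeq start used is downstream of it.

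The windows of *Bcl2l11*, *Bbc3* and *Bcl2* were rich in G and C, at 72.0%, 76.4% and 74.8%, whereas that of *Bcl2l1* held 47.6%. The median over the 32851 RefSeq start windows of the same length was 52.4%. The GC box was found 3 times before *Bcl2l11*, 5 times before *Bbc3*, where the pair nearest the start shares 1 base, 7 times before *Bcl2* and 0 times before *Bcl2l1*, and 32.7% of all windows hold it. A single CCAAT box stood 57 bases before the *Bcl2l11* start and 0 stood in the other windows, where 33.8% of all windows hold one. The forkhead core TGTTTAC, bound by FOXO factors, was matched once, 227 bases before the *Bcl2l11* start; 3.17% of all windows hold it. The TATA box TATAAA, the homeodomain core TAATTA and the p53 half-site consensus were matched in 0 of the 4 windows, against 12.4%, 4.84% and 7.13% of all windows. All motifs were searched on both strands, and a match or its absence describes only the letters of these windows.

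Before the members, *Dbx2* itself was compared between the groups. It was at 77.2 ± 51.8 CPM in the *GFP*-NSPC samples against 155 ± 35.4 CPM in those of *Dbx2*-NSPCs. The log2 difference was 1.26 (standard error, SE, 0.317, limma adjusted p = 0.00978), and the *Dbx2*-NSPC culture was above the same-numbered control in 8 of 8 numbers. Among numbers 1 to 4 the groups overlapped, at 171.22, 105.11, 116.00 and 89.31 CPM in *GFP*-NSPCs against 232.13, 168.44, 157.28 and 135.99 CPM, and *Dbx2* was not called (log2 fold change 0.54, limma adjusted p = 0.0891). *GFP*-NSPC replicate 1 was above 7 of the 8 *Dbx2*-NSPC samples. In those numbered 5 to 8, *GFP*-NSPCs were at 30.67 to 39.48 CPM and *Dbx2*-NSPCs at 114.0 to 155.22 CPM, without overlap. The CPM of a gene do not separate transcripts of the transgene from those of the cell's own copy. Reads come from the end of the transcript, and the sources used here do not say whether transcripts of the plasmid end in sequence counted for *Dbx2*. These levels therefore do not measure how strongly the transgene was expressed in either set of samples. The samples numbered 1 to 4 stood apart from those numbered 5 to 8. Deviations from the group means, taken between a *GFP*-NSPC and a *Dbx2*-NSPC sample across all tested genes, correlated at 0.199 on average for different numbers of the same set and at -0.206 across the sets. Values are therefore also given within each set, which was seen in the data and is not a label. The methods give 4 experiments for each pair of lines, so the sets may be the 2 pairs. The labels do not tell, and within a set the line, its derivation and the experiments cannot be told apart. In the samples numbered 1 to 4, limma called 15.6% of the tested genes (8.19% higher and 7.37% lower), and in those numbered 5 to 8 it called 23.2% (11.5% higher and 11.7% lower). Depth ran from 1804660 to 3260284 recovered reads for the *GFP*-NSPC samples and from 2215074 to 3294873 for the others. The detection floor, set at 3 reads, corresponded to 0.911 to 1.66 CPM. It covers counting error alone, because the files do not tell PCR copies of a molecule apart.

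Among the pro-survival genes, *Bcl2l1* (ENSMUSG00000007659; GRCm38 chromosome 2, 152780668 to 152831728, minus strand) encodes the protein that keeps Bax and Bak in check in many neural cells. Its lowest, median and highest levels were 33.89, 41.51 and 66.88 CPM in *GFP*-NSPCs and 53.01, 76.07 and 115.18 CPM in *Dbx2*-NSPCs. The groups overlapped only through *GFP*-NSPC replicates 1 and 7 and *Dbx2*-NSPC replicate 8, the lowest of its group. The mean level was 44.2 ± 11.3 CPM in the *GFP*-NSPC samples against 82.6 ± 21.7 CPM in those of *Dbx2*-NSPCs. The log2 fold change was 0.89 (SE 0.164, limma adjusted p = 8.88e-04), and the *Dbx2*-NSPC sample was the higher one throughout, with log2 differences of 0.25 to 1.66 between same-numbered samples. Over all tested genes, 6.88% were higher in *Dbx2*-NSPCs in 8 of 8 numbers.

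In the samples numbered 1 to 4, *Bcl2l1* was at 66.88, 43.03, 33.89 and 39.99 CPM in *GFP*-NSPCs and at 79.62, 95.60, 108.43 and 115.18 CPM in *Dbx2*-NSPCs. In those numbered 5 to 8 it was at 34.36, 43.86, 54.30 and 37.01 CPM against 72.51, 68.03, 68.62 and 53.01 CPM. The groups did not overlap in the former set and overlapped by a single sample of each group in the latter. Of all tested genes, 9.53% were higher without overlap in the former set and 12.2% in the latter. The log2 fold changes were 1.14 (limma adjusted p = 0.00198) and 0.64 (adjusted p = 0.00691). The difference between them was -0.51 (SE 0.2501) and was not called (limma interaction, adjusted p = 0.242, with 9.44% of the tested genes called). Reads near the end of the transcript do not separate Bcl-xL from the shorter Bcl-xS, a splice form known to promote death.

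*Mcl1* encodes a short-lived pro-survival protein that is controlled largely by its turnover. It was the most abundant member in both groups, with lowest, median and highest levels of 121.35, 142.70 and 160.51 CPM in *GFP*-NSPCs and 127.96, 149.55 and 177.87 CPM in *Dbx2*-NSPCs. The groups overlapped over most of their range. Its log2 fold change of 0.06 did not pass the test (SE 0.0765, limma adjusted p = 0.629), with a 95% interval from -0.10 to 0.22, and 4 of 8 numbers were higher in *Dbx2*-NSPCs.

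*Bcl2* (ENSMUSG00000057329; GRCm38 chromosome 1, 106538178 to 106714274, minus strand) was at 57.5 ± 7.09 CPM in the *GFP*-NSPC samples against 64.3 ± 17.8 CPM in those of *Dbx2*-NSPCs. Its log2 fold change over all samples was 0.12 (SE 0.146, limma adjusted p = 0.637). In the samples numbered 1 to 4 the level was 49.96, 58.20, 68.10 and 65.32 CPM in *GFP*-NSPCs and 50.73, 46.74, 46.89 and 48.08 CPM in *Dbx2*-NSPCs. All *Dbx2*-NSPC samples of this set but replicate 1 were lower than every *GFP*-NSPC sample, and the log2 fold change was -0.32 (SE 0.125, limma adjusted p = 0.114). In the samples numbered 5 to 8 the level was 58.18, 47.24, 53.96 and 59.22 CPM in *GFP*-NSPCs and 80.96, 74.86, 76.75 and 89.14 CPM in *Dbx2*-NSPCs. Here every *Dbx2*-NSPC sample was higher than every *GFP*-NSPC sample, and *Bcl2* rose with a log2 difference of 0.56 (SE 0.106, limma adjusted p = 0.00162). The fold changes of the sets differed by 0.87 (SE 0.169, limma interaction, adjusted p = 8.80e-04). *Bcl2* was the only member called for this difference, against 9.44% of all tested genes. On the strand of *Bcl2* the annotation places *Mir3473f* and *Gm37053* within it, and *D630008O14Rik* lies on the opposite strand. The strand used in counting is not given in the sources used here, so reads of these genes may be mixed with its own.

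The fold change of *Dbx2* also differed between the sets, at 0.54 in the samples numbered 1 to 4, where it did not pass the test, and 1.99 in those numbered 5 to 8 on the log2 scale (limma interaction, adjusted p = 1.04e-04). So did those of some markers of other cell types. The astrocyte transporter *Slc1a2* had log2 fold changes of -0.31 and 1.19 in the sets (interaction adjusted p = 2.67e-06). The neuroblast marker *Dcx* had -2.87 and 3.02 (interaction adjusted p = 3.26e-07) at levels of 0 to 6.84 CPM, and the neuronal gene *Rbfox3* had -1.96 and 2.90 (interaction adjusted p = 3.90e-06) at levels of 0.31 to 14.86 CPM. Both lay under the floor of 3 reads in some samples. The summed level of the 7 neuroblast and neuron markers was 840 to 1294 CPM in *GFP*-NSPCs and 706 to 906 CPM in *Dbx2*-NSPCs, nearly all of it *Map2*, and *Stmn2* was at 0 in every sample. The part of these cells in the *Bcl2* result was not tested.

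**Figure D1:**
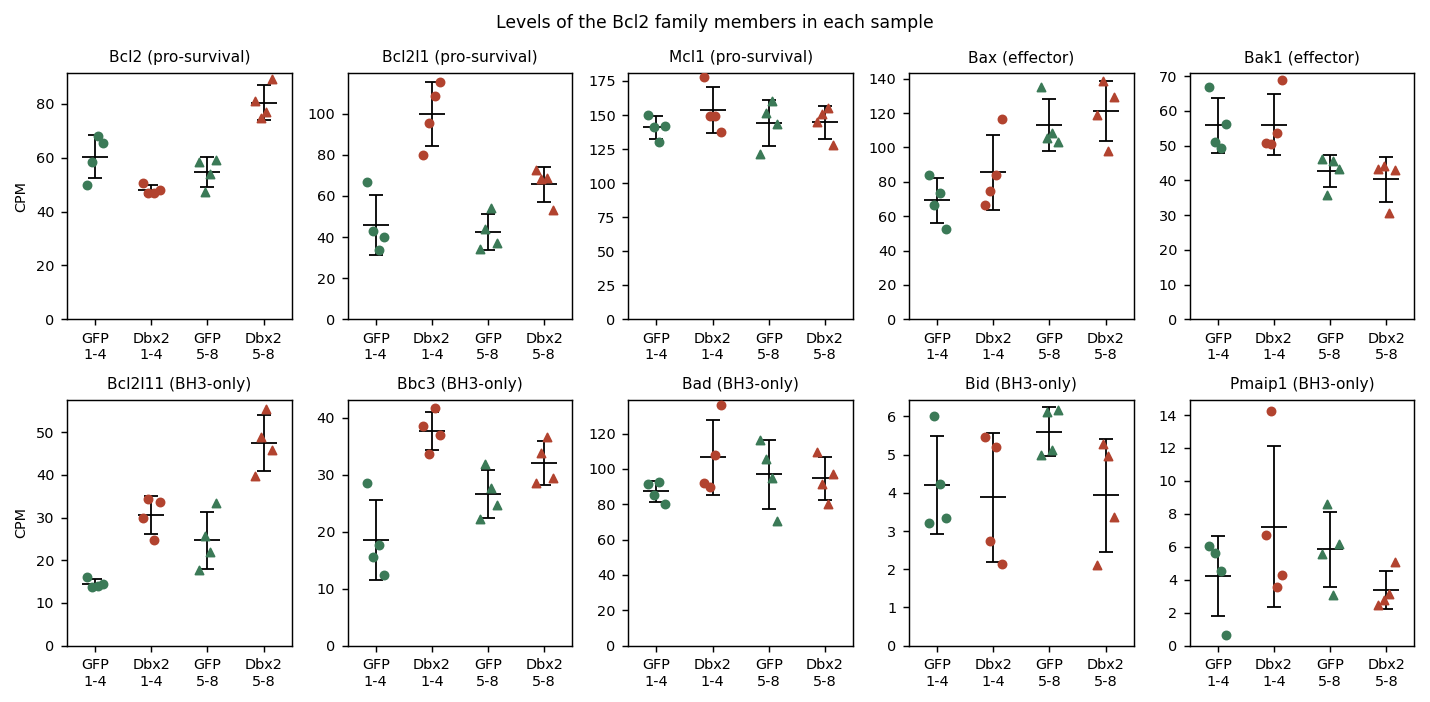
Level in CPM (vertical axes, each from 0) of the 10 members in every sample, by transgene and by replicate numbers 1 to 4 (circles) and 5 to 8 (triangles); horizontal bars are means and whiskers the SD of the 4 samples. *Bcl2l11* does not overlap between the groups in either set, and *Bcl2* in *Dbx2*-NSPCs is at 46.74 to 50.73 CPM in numbers 1 to 4 and at 74.86 to 89.14 CPM in numbers 5 to 8.

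The effectors *Bax* and *Bak1* encode the proteins that form the pore. *Bax* had lowest, median and highest levels of 52.65, 93.51 and 135.21 CPM in *GFP*-NSPCs and 66.78, 107.29 and 138.85 CPM in *Dbx2*-NSPCs. Its log2 fold change of 0.19 did not pass the test (SE 0.185, limma adjusted p = 0.529), with a 95% interval from -0.19 to 0.58. The wide spread of *Bax* in *GFP*-NSPCs followed the replicate numbers: it was at 52.65 to 83.80 CPM in numbers 1 to 4 and at 103.22 to 135.21 CPM in numbers 5 to 8. *Bak1* had lowest, median and highest levels of 35.89, 47.60 and 66.88 CPM in *GFP*-NSPCs and 30.70, 47.25 and 68.89 CPM in *Dbx2*-NSPCs. Its log2 fold change was -0.05 (SE 0.143, limma adjusted p = 0.873), with a 95% interval from -0.35 to 0.25. *Bak1* had the opposite order between the sets in *GFP*-NSPCs, at 49.20 to 66.88 CPM in numbers 1 to 4 and 35.89 to 45.99 CPM in numbers 5 to 8. *Gm45808* overlaps *Bax* on its own strand, and *Ggnbp1* overlaps *Bak1* on the other.

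Among the BH3-only genes, *Bcl2l11* (ENSMUSG00000027381; GRCm38 chromosome 2, 128126038 to 128162547, plus strand) had, over all samples, the largest fold change among the members called. In the samples numbered 1 to 4 its log2 fold change (1.04) was below those of *Bcl2l1* (1.14) and *Bbc3* (1.07). With the mitochondrial share as a covariate it (0.88) was below that of *Bcl2l1* (0.90). Bim binds all of the pro-survival proteins and can also act on the effectors, and FOXO factors are known to switch its gene on when growth factors are withdrawn. Its lowest, median and highest levels were 13.76, 16.92 and 33.31 CPM in *GFP*-NSPCs and 24.75, 37.04 and 55.53 CPM in *Dbx2*-NSPCs. The mean level was 19.6 ± 6.97 CPM in the *GFP*-NSPC samples against 39.1 ± 10.4 CPM in those of *Dbx2*-NSPCs, a log2 difference of 1.0 (SE 0.197, limma adjusted p = 0.00156). The *Dbx2*-NSPC sample was higher in 8 of 8 numbers, with log2 differences of 0.46 to 1.33.

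The groups overlapped for *Bcl2l11* over all samples but within neither set of numbers. In the samples numbered 1 to 4 it was at 16.11, 13.76, 14.01 and 14.33 CPM in *GFP*-NSPCs and at 29.86, 34.30, 24.75 and 33.73 CPM in *Dbx2*-NSPCs, a log2 difference of 1.04 (limma adjusted p = 0.00149). In those numbered 5 to 8 it was at 17.73, 25.76, 21.86 and 33.31 CPM against 39.77, 48.77, 55.53 and 45.92 CPM, a log2 difference of 0.96 (limma adjusted p = 0.00145). Over all tested genes, 3.3% were higher in *Dbx2*-NSPCs without overlap in both sets. The fold changes of the sets differed by -0.08 (SE 0.252, limma interaction, adjusted p = 0.897). The reads do not separate the long, middle and short forms of Bim.

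*Bbc3* (ENSMUSG00000002083; GRCm38 chromosome 7, 16308393 to 16318205, plus strand) encodes Puma, a BH3-only protein that binds all pro-survival members and is a classic target of p53. Its lowest, median and highest levels were 12.33, 23.42 and 31.90 CPM in *GFP*-NSPCs and 28.51, 35.22 and 41.68 CPM in *Dbx2*-NSPCs. The mean level was 22.6 ± 6.90 CPM in the *GFP*-NSPC samples against 34.9 ± 4.47 CPM in those of *Dbx2*-NSPCs, a log2 difference of 0.67 (SE 0.171, limma adjusted p = 0.0110). It was higher in *Dbx2*-NSPCs in 8 of 8 numbers, with log2 differences of 0.08 to 1.55. In the samples numbered 1 to 4 it was at 28.60, 15.52, 17.59 and 12.33 CPM in *GFP*-NSPCs and at 38.53, 33.69, 41.68 and 36.96 CPM in *Dbx2*-NSPCs, with no overlap and a log2 difference of 1.07 (limma adjusted p = 0.00711). In those numbered 5 to 8 it was at 22.16, 31.90, 27.66 and 24.67 CPM against 28.51, 33.86, 36.57 and 29.37 CPM, the groups overlapped, and the log2 fold change of 0.27 did not pass the test (limma adjusted p = 0.228). The difference between the sets, -0.80 (SE 0.275), was not called (limma interaction, adjusted p = 0.0691).

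*Bad*, whose protein is held inactive by growth factor signaling through phosphorylation, was the most abundant BH3-only gene. Its lowest, median and highest levels were 70.32, 92.16 and 116.37 CPM in *GFP*-NSPCs and 80.36, 94.70 and 135.99 CPM in *Dbx2*-NSPCs. The log2 fold change of 0.13 did not pass the test (SE 0.112, limma adjusted p = 0.497), with a 95% interval from -0.11 to 0.36. *Bid*, whose protein is cleaved by caspase-8 and links the death receptors to mitochondria, was at 3.22 to 6.17 CPM in *GFP*-NSPCs and 2.11 to 5.46 CPM in *Dbx2*-NSPCs, from 6 to 20 reads a sample. Its log2 fold change was -0.34 (SE 0.239, limma adjusted p = 0.376) and its 95% interval ran from -0.83 to 0.16. *Gpr137* overlaps *Bad* and *Bcl2l13* overlaps *Bid*, both on the opposite strand.

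*Pmaip1* encodes Noxa, which mainly binds Mcl-1. It rested on 2 to 47 reads a sample, with lowest, median and highest levels of 0.67, 5.59 and 8.59 CPM in *GFP*-NSPCs and 2.46, 3.95 and 14.26 CPM in *Dbx2*-NSPCs. *GFP*-NSPC replicate 4 was under the floor of 3 reads and *Dbx2*-NSPC replicate 2 stood above all other samples. The log2 fold change of 0.05 had a SE of 0.386 and a 95% interval from -0.75 to 0.86 (limma adjusted p = 0.949), and the samples of both groups spread widely.

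**Figure D2:**
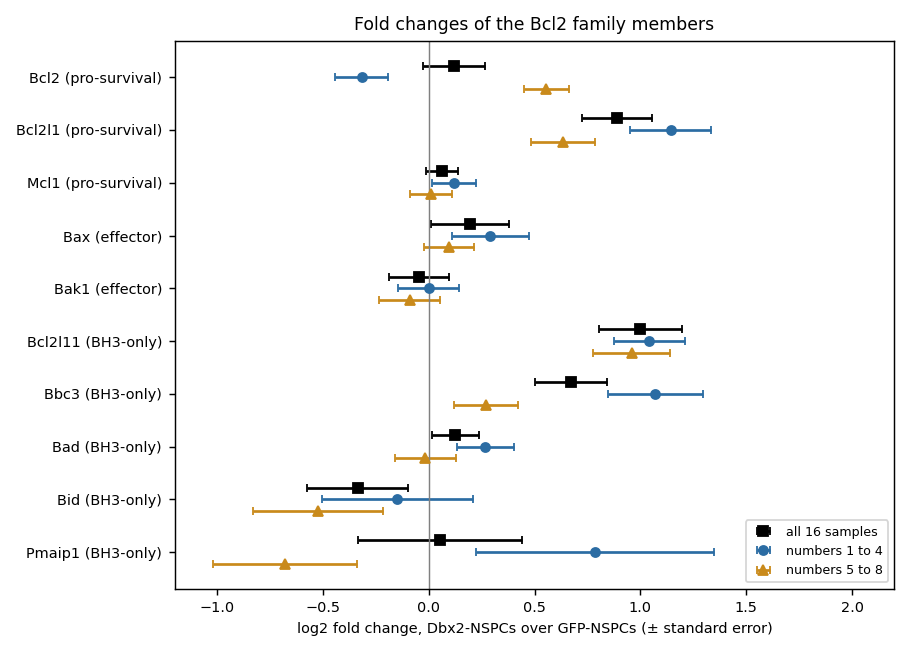
Log2 fold change of each member, *Dbx2*-NSPCs over *GFP*-NSPCs, with its SE from limma (horizontal bars), over all 16 samples (squares), the samples numbered 1 to 4 (circles) and those numbered 5 to 8 (triangles). *Bcl2l1* and *Bcl2l11* lie to the right of 0 in all fits shown, and *Bcl2* lies at -0.32 and 0.56 in the sets.

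In same-numbered samples, then, only *Bcl2l1*, *Bcl2l11* and *Bbc3* of the members were higher in *Dbx2*-NSPCs in all 8 numbers. *Bcl2*, *Bax* and *Bad* were higher in 5, *Mcl1* and *Pmaip1* in 4, *Bak1* in 3 and *Bid* in 2. Over all tested genes, 6.88% were higher and 7.47% lower in all 8 numbers. The calls of *Bcl2l1*, *Bcl2l11* and *Bbc3* held with replicate number fitted as a block, with the set of numbers as a factor, in edgeR and DESeq2 on recovered reads, and without *GFP*-NSPC replicate 1. Of all tested genes, the block called 21.7% (10.8% higher and 10.9% lower), the set factor 24.2% (12% and 12.2%), edgeR 15.4% (8.38% and 7.01%), DESeq2 17.5% (9.42% and 8.11%) and the fit without that sample 17.6% (8.63% and 9%). *Bcl2l1* and *Bcl2l11* were called higher in both sets of numbers, and 0 members were called in opposite directions, where 6.49% of all tested genes were called in the same and 1.47% in opposite directions.

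**Figure D3:**
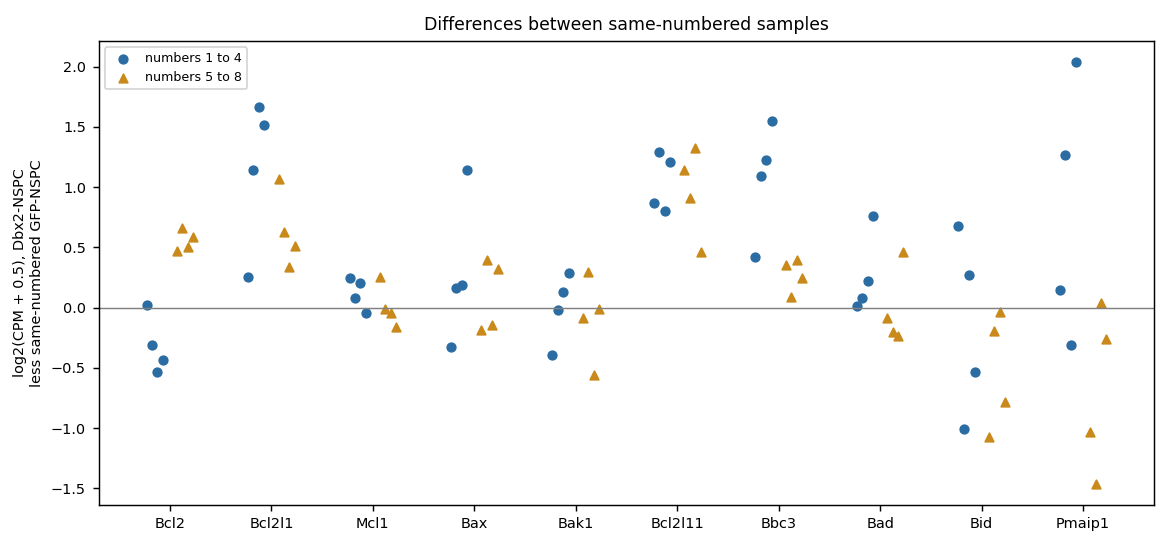
Difference in log2(CPM + 0.5) between the *Dbx2*-NSPC and the *GFP*-NSPC sample of the same number (vertical axis), 8 points a member, with circles for numbers 1 to 4 and triangles for 5 to 8. All 8 points lie above 0 for *Bcl2l1*, *Bcl2l11* and *Bbc3*, and the triangles of *Bcl2* lie above its circles.

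The share of reads from the mitochondrial genome moved with the groups. It was 3.19% to 6.96% in *GFP*-NSPCs and 4.17% to 8.17% in *Dbx2*-NSPCs, with means of 4.23% ± 1.26 and 6.30% ± 1.22 (SD, n = 8 each; 2-sided exact permutation test over 12870 splits, p = 0.00824). The sample with the highest *Bcl2l1* level had the highest share of its group in *GFP*-NSPCs (replicate 1, 6.96%) and the lowest in *Dbx2*-NSPCs (replicate 4, 4.17%). *Dbx2* was highest in replicate 1 of both groups, which had the highest share of its group (6.96% and 8.17%). The highest samples of *Bcl2l11* and *Bbc3* had neither the highest nor the lowest share of their group. The part of the share in these levels was not tested. With this share as a covariate, a choice made after the data were seen, limma called 1 member, and 7.18% of the tested genes (3.45% higher and 3.73% lower). *Bcl2l1* kept a log2 fold change of 0.90 (adjusted p = 0.0213), *Bcl2l11* had 0.88 (adjusted p = 0.0535) and *Bbc3* had 0.53 (adjusted p = 0.180). *Dbx2* itself then had 0.77 (adjusted p = 0.269). The SEs for *Bcl2l1*, *Bcl2l11* and *Bbc3* were 0.226, 0.267 and 0.229 with the covariate, against 0.164, 0.197 and 0.171 without it.

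Levels are set side by side between genes here as a rough order. These libraries yield reads from the end of a transcript, so the CPM do not grow with its length. How evenly the ends of different genes are counted was not tested, and reads of overlapping genes may be mixed in. In *GFP*-NSPCs the mean levels ran from *Mcl1* (142.6 CPM) through *Bad* (92.1 CPM), *Bax* (91.1 CPM), *Bcl2* (57.5 CPM), *Bak1* (49.3 CPM), *Bcl2l1* (44.2 CPM), *Bbc3* (22.6 CPM), *Bcl2l11* (19.6 CPM) and *Pmaip1* (5.04 CPM) to *Bid* (4.90 CPM). Of these neighbours, *Mcl1* and *Bad*, *Bcl2l1* and *Bbc3*, and *Bcl2l11* and *Pmaip1* did not overlap between their samples, and all others did. In *Dbx2*-NSPCs they ran from *Mcl1* (149.2 CPM) through *Bax* (103.4 CPM), *Bad* (100.6 CPM), *Bcl2l1* (82.6 CPM), *Bcl2* (64.3 CPM), *Bak1* (48.1 CPM), *Bcl2l11* (39.1 CPM), *Bbc3* (34.9 CPM) and *Pmaip1* (5.30 CPM) to *Bid* (3.91 CPM), and only *Bbc3* and *Pmaip1* did not overlap among neighbours. The order was not the same in the sets of numbers. In *Dbx2*-NSPCs numbered 1 to 4, *Bcl2l1* (99.7 CPM) was above *Bcl2* (48.1 CPM), *Bad* (106.5 CPM) above *Bax* (85.5 CPM) and *Bbc3* (37.7 CPM) above *Bcl2l11* (30.7 CPM). In those numbered 5 to 8, *Bcl2* (80.4 CPM) was above *Bcl2l1* (65.5 CPM), *Bax* (121.3 CPM) above *Bad* (94.8 CPM) and *Bcl2l11* (47.5 CPM) above *Bak1* (40.2 CPM).

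Summed by role, the 3 pro-survival genes came to 213.89 to 268.77 CPM in *GFP*-NSPCs and 270.11 to 308.22 CPM in *Dbx2*-NSPCs, without overlap. *Bcl2l1* made up 17.9% ± 3.37 of this sum in *GFP*-NSPCs and 27.8% ± 6.80 in *Dbx2*-NSPCs. The 5 BH3-only genes came to 110.64 to 178.20 CPM and 172.74 to 213.14 CPM, and *Bcl2l11* and *Bbc3* together made up 29.0% ± 6.40 and 40.4% ± 5.60 of it. The effectors, at 108.97 to 181.20 CPM and 117.51 to 185.50 CPM, overlapped over nearly their whole range. Sums of transcripts do not weigh the proteins' binding preferences and were given no test.

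The pattern of *Bcl2l1*, the member with the smallest p, was set beside all tested genes outside the lists. The highest Pearson correlations of log2(CPM + 0.5) over the 16 samples were those of *Shisa5* (0.947), *Ppp1r18os* (0.923), *Cyb5r3* (0.914), *Iqcc* (0.906) and *Man1b1* (0.903). These values share the same libraries and the same difference between the groups: all 5 genes were themselves called higher in *Dbx2*-NSPCs, with log2 fold changes of 0.82, 2.28, 0.49, 0.57 and 0.49 in that order.

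The genes around the family were taken from 6 lists with 62 genes, of which 47 were tested. Limma called 2 of the 47 higher and 4 lower, 12.8% together, against 15.8% of all tested genes, and their median log2 fold change was -0.07. It called 5 higher and 3 lower in the samples numbered 1 to 4 and 5 higher and 6 lower in those numbered 5 to 8. Of all tested genes, 8.19% were called higher and 7.37% lower in the former set, and 11.5% and 11.7% in the latter. Genes called within a set but not over all samples are given with the values of both sets, and of them only *Casp9* was called for the difference between the sets. Of 15 other Bcl2 relatives, 8 were tested, 0 were called higher and 1 lower. This was *Bcl2l13*, whose protein is an outer mitochondrial membrane receptor for mitophagy. It fell from 102.8 ± 23.9 CPM to 67.4 ± 9.57 CPM, a log2 difference of -0.58 (limma adjusted p = 0.00416). It overlaps *Bid* on the opposite strand at a far higher level, and without strand the reads of the pair cannot be told apart. The remaining relatives tested were *Bok*, *Bmf*, *Hrk*, *Bnip3*, *Bnip3l*, *Bcl2l2* and *Bcl2l12*. *Bnip3*, a mitophagy receptor induced by hypoxia, had a log2 difference of 0.44 (limma adjusted p = 0.0563). It passed in edgeR (adjusted p = 0.0364), in DESeq2 (0.0424), under the replicate block (0.0444) and with the set of numbers as a factor (0.0296). *Hrk*, a BH3-only gene known from neurons, was called higher in the samples numbered 5 to 8 (log2 fold change 1.30, limma adjusted p = 0.0171, against 0.20 in the other set), at no more than 6.77 CPM in any sample. The pro-survival relatives *Bcl2a1a*, *Bcl2a1b*, *Bcl2a1d* and *Bcl2l10* were at 0 in every sample.

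Of the 10 genes of mitochondrial release and the apoptosome, 0 were called in either direction by limma over all samples, 2 (*Apaf1* and *Diablo*) had an unadjusted p under 0.05, as did 29.2% of all tested genes, and 0 were called by edgeR or DESeq2. Their median log2 fold change was -0.10. Among them are *Apaf1* and *Cycs*, whose products assemble the apoptosome, and *Casp9*, the caspase it activates. The fold change of *Casp9* differed between the sets, at 1.15 in the samples numbered 1 to 4, where it was called higher (limma adjusted p = 0.0395), and -0.47 in those numbered 5 to 8, where it was not (0.172), on the log2 scale (limma interaction, adjusted p = 0.0113), at levels of 3.53 to 15.73 CPM. *Vdac2*, a channel of the outer mitochondrial membrane and the most abundant gene of the list, was called lower with the mitochondrial share as a covariate (log2 fold change -0.31, limma adjusted p = 0.0355), against -0.11 without it (0.390).

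Among the 7 caspase and nuclease genes described here, 0 were called higher and 1 lower over all samples. *Casp2*, an initiator caspase linked to DNA damage and failed mitosis, fell from 20.8 ± 4.07 CPM to 13.8 ± 4.77 CPM, a log2 difference of -0.62 (limma adjusted p = 0.0344, edgeR adjusted p = 0.0575). Within the sets it was called only in the samples numbered 5 to 8, with a log2 fold change of -0.98 against -0.26 in those numbered 1 to 4, and the difference was not called (limma interaction, adjusted p = 0.231). *Dffa* and *Dffb*, which encode the inhibitor and the nuclease of a DNA-cutting complex, were also called lower in the samples numbered 5 to 8, by limma at -0.96 (adjusted p = 0.00914) and -1.34 (adjusted p = 0.0184) on the log2 scale, so that 3 of the 7 fell there, where 11.7% of all tested genes were called lower. In those numbered 1 to 4 they had 0.14 and -0.32 and 0 of the 7 were called by limma. Of the 9 inhibitors of apoptosis, 4 were tested (*Birc2*, *Birc5*, *Birc6* and *Xiap*) and 0 were called over all samples by limma, edgeR or DESeq2, with an unadjusted p under 0.05 for *Xiap*. Within numbers 5 to 8 limma called *Xiap*, which encodes a direct inhibitor of caspases, lower (log2 fold change -0.39, adjusted p = 0.00903) and *Birc5* higher (0.58, adjusted p = 0.00782), against -0.06 and 0.10 in those numbered 1 to 4. *Birc5*, which encodes survivin and also serves in mitosis, had a log2 difference of 0.34 over all samples (limma adjusted p = 0.200, 0.0257 under the replicate block and 0.0666 with the set of numbers as a factor).

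In the death receptor arm, which starts at the cell surface, 6 of 7 genes were tested, 2 were called higher and 0 lower. Both of those called are receptors. *Tnfrsf1a*, the main receptor for tumour necrosis factor, rose from 64.8 ± 18.0 CPM to 117.2 ± 15.5 CPM, a log2 difference of 0.88 (limma adjusted p = 1.18e-04). *Fas*, a death receptor and p53 target, rose from 2.21 ± 1.29 CPM to 6.32 ± 1.996 CPM, a log2 difference of 1.44 (limma adjusted p = 0.00266) that rests on few reads in *GFP*-NSPCs, where the lowest sample was at 0.41 CPM. *Cflar*, which encodes the caspase-8 inhibitor c-FLIP, had a log2 difference of 0.37 (limma adjusted p = 0.182). It passed under the replicate block (0.0163) and with the set of numbers as a factor (0.0238).

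Of 14 genes that regulate the family or its proteins, 12 were tested, 0 were called higher and 2 lower. *Fbxw7*, which encodes the part of a ubiquitin ligase that marks Mcl-1 and other proteins for destruction, fell from 120.1 ± 8.38 CPM to 90.8 ± 15.98 CPM, a log2 difference of -0.42 (limma adjusted p = 0.00631). It was called in the samples numbered 1 to 4 (log2 fold change -0.58) but not in those numbered 5 to 8 (-0.26, limma adjusted p = 0.0722), and the difference was not called (limma interaction, adjusted p = 0.182). *Ddit3*, which encodes the stress factor CHOP, a known activator of *Bcl2l11* and *Bbc3*, fell from 44.0 ± 11.1 CPM to 27.5 ± 6.35 CPM, a log2 difference of -0.65 (limma adjusted p = 0.0144). *Trp53*, which encodes p53, had a log2 difference of -0.18 (limma adjusted p = 0.476) and *Foxo3* one of 0.24 (adjusted p = 0.253). *Foxo1* had a log2 difference of 0.41 (limma adjusted p = 0.0506) and *Mdm2*, a p53 target that encodes the ligase for p53, one of 0.32 (adjusted p = 0.226). Both passed under the replicate block (adjusted p = 0.0162 and 0.0177) and with the set of numbers as a factor (0.0265 and 0.0152). *Foxo1* also passed in edgeR (0.0445) and DESeq2 (0.0281). Within the samples numbered 1 to 4 limma called *Foxo3* (log2 fold change 0.52, adjusted p = 0.0167) and *Mdm2* (0.44, adjusted p = 0.0312) higher, against -0.04 and 0.19 in the other set. Within those numbered 5 to 8 it called *Foxo1* higher (0.57, adjusted p = 0.0431), against 0.26. With the mitochondrial share as a covariate, *Tnfrsf1a* (log2 fold change 0.59) and *Fbxw7* (-0.45) were still called by limma. *Bcl2l13* then had -0.52 (adjusted p = 0.0848), *Casp2* -0.46 (adjusted p = 0.314), *Fas* 1.12 (adjusted p = 0.101) and *Ddit3* -0.65 (adjusted p = 0.1096). *Bnip3*, *Birc5*, *Cflar*, *Foxo1* and *Mdm2* did not pass with it either (adjusted p from 0.353 to 0.687).

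**Figure D4:**
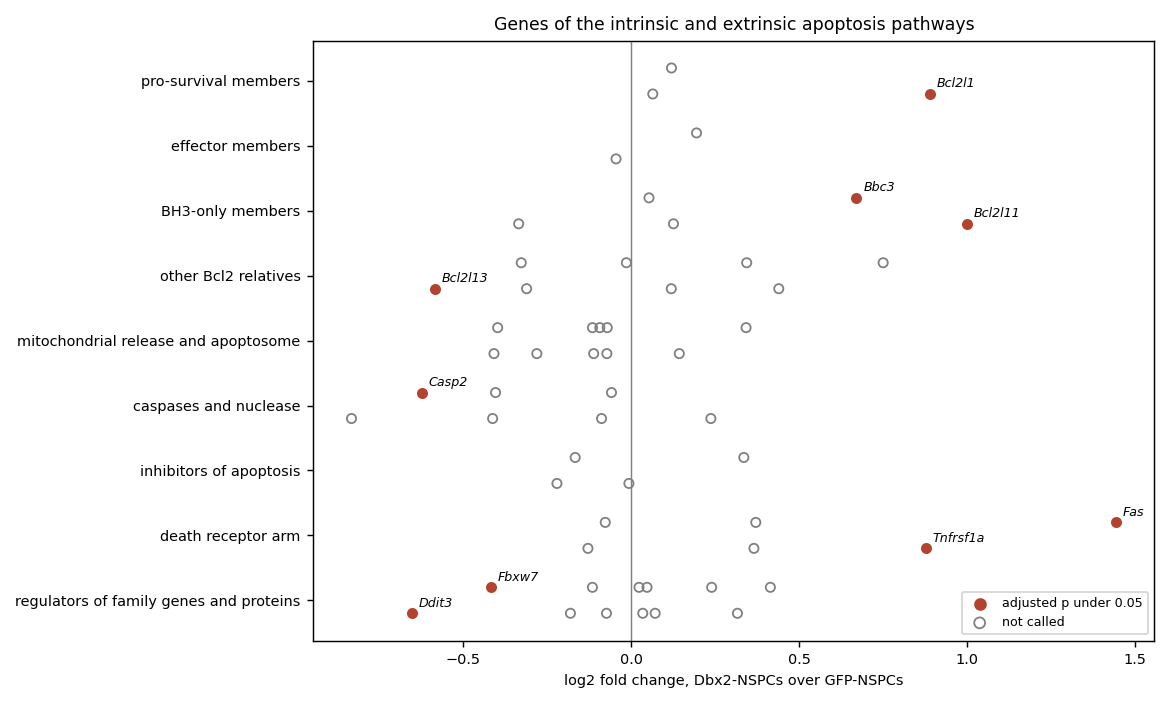
Log2 fold change, *Dbx2*-NSPCs over *GFP*-NSPCs (horizontal axis), of the tested genes of the family and of the 6 lists around it (rows), with filled and named points for genes with a limma adjusted p under 0.05; points are staggered only for legibility. The 3 members called lie between 0.67 and 1.0, and the 10 genes of mitochondrial release and the apoptosome are all open points.

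The labelled cell type was checked against its markers. Of 10 NSPC markers, 9 were tested, led by *Vim*, *Olig2*, *Fabp7*, *Nes* and *Slc1a3*, and *Prom1* did not exceed 2 reads in any sample. In *Dbx2*-NSPCs 0 of these markers were called higher and 4 lower, namely *Pax6*, *Egfr*, *Fabp7* and *Slc1a3*, with log2 fold changes of -0.74, -0.45, -0.72 and -1.03. With the mitochondrial covariate *Pax6* and *Fabp7* were still called, while *Egfr* had -0.40 (limma adjusted p = 0.0858) and *Slc1a3* -1.17 (adjusted p = 0.103). *Sox2* had -0.37 over all samples (limma adjusted p = 0.181) and was called lower under the replicate block (5.08e-04), with the set of numbers as a factor (3.17e-04) and in each set alone (-0.42 and -0.32, adjusted p = 0.00849 and 0.0221). *Nes* was called lower with the set factor (adjusted p = 0.0405) and in the samples numbered 5 to 8 (-0.65, adjusted p = 2.28e-05), against 0.03 in those numbered 1 to 4. The summed level of the 10 markers was 6864 to 8411 CPM in *GFP*-NSPCs and 5619 to 7163 CPM in *Dbx2*-NSPCs, led by *Vim*.

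Markers of other cell types moved with the groups too. Of 6 astrocyte markers, all tested, *Aldoc* and *Gfap* rose and *Aldh1l1* fell, with log2 fold changes of 1.42, 3.31 and -1.197, and the summed level was 394 to 1120 CPM in *GFP*-NSPCs and 783 to 1059 CPM in *Dbx2*-NSPCs, with *Aldoc* the most abundant and none at 0. *Gfap* was at 0.82 to 20.95 CPM in *GFP*-NSPCs, its lowest sample under the floor of 3 reads. Its log2 fold change was 2.75 with 2 in place of 0.5 added to the CPM. With the mitochondrial covariate it was 2.70 (limma adjusted p = 0.0328). *Aqp4* and *Slc1a2* were called higher in the samples numbered 5 to 8 alone (limma adjusted p = 0.0228 and 1.47e-06), and *S100b* lower with the mitochondrial covariate alone (adjusted p = 0.0337). *Map2*, of the neuroblast and neuron list, fell with a log2 fold change of -0.47, or -0.42 with the mitochondrial covariate, where it was not called (limma adjusted p = 0.0926). *Snap25*, at low levels, was called lower in the samples numbered 1 to 4 (limma adjusted p = 0.0328). Of 4 ependymal markers, 3 were tested and *Ccdc153* and *Rarres2* rose over all samples, with a summed level of 10.3 to 25.8 CPM in *GFP*-NSPCs and 21.9 to 44.9 CPM in *Dbx2*-NSPCs, led by *Foxj1*, and with *Tmem212* at 0. In *GFP*-NSPCs *Ccdc153* was at 0 to 2.88 CPM and *Rarres2* at 0.55 to 4.60 CPM, around the floor of 3 reads. Their log2 fold changes were 1.75 and 1.24 over all samples. Neither was called in the samples numbered 5 to 8 (1.05 and 0.71, limma adjusted p = 0.245 and 0.286). The same held with the mitochondrial covariate (1.43 and 0.69, limma adjusted p = 0.162 and 0.395). *Foxj1* had 0.56 over all samples (limma adjusted p = 0.104) and passed in edgeR (0.0468), in DESeq2 (0.0284) and under the replicate block (0.0307), but not with the set of numbers as a factor (0.0702) or with the mitochondrial covariate (log2 fold change -0.08, adjusted p = 0.880). Of 9 endothelial and mural markers, 2 were tested and *Flt1* rose, with a summed level of 1.34 to 8.87 CPM and 4.88 to 22.1 CPM, while *Cldn5* and *Cdh5* were at 0. In *GFP*-NSPCs *Flt1* was at 0 to 2.39 CPM, around the floor of 3 reads. Its log2 fold change of 2.29 became 1.47 with 2, and 3.03 with 0.1, in place of 0.5 added to the CPM. *Kdr*, the other marker tested, had -0.40 (limma adjusted p = 0.678). Of 7 oligodendrocyte lineage markers 3 were tested and 0 called by limma (over all samples or in either set), edgeR or DESeq2, with 0 at an unadjusted p under 0.05; their summed level of 13.2 to 47.3 CPM and 10.2 to 76.1 CPM was led by *Cspg4*, and *Mog* was at 0. The 7 microglia markers summed to at most 2.45 CPM in any sample, with *Aif1* and *Tmem119* at 0, and none was tested. The part of astrocyte-like, ependymal or other cells in the levels of *Bcl2l1*, *Bcl2l11* and *Bbc3* was not tested.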

How the data were processed

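RNA from 16 cultures was measured with the QuantSeq 3' kit. Per the study's methods, reads were trimmed with bbduk and aligned to GRCm38 (mm10) with Ensembl annotation. The submitters' processing notes name FastQC 0.11.8, STAR 2.5.0a and edgeR 3.36; the read counter and its strand setting are not given in the sources used here. What the authors deposited is a single table of CPM covering 30386 genes, rounded to 2 decimals, and 0 of its sample columns were left out. Dividing by the value of 1 read gave whole numbers for 99.998% of nonzero entries (tolerance 0.0051 CPM), with totals of 1804660 to 3294873 reads.

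Samples were grouped by their titles. The cell line of a sample is not in its labels, so the line covariate of the study's methods was not fitted. A gene was tested if above 1 CPM in 4 samples or more, on log2(CPM + 0.5) with limma 3.58.1 (eBayes with trend, R 4.3.3) and Benjamini-Hochberg adjustment, with a threshold of 0.05. The difference between the samples numbered 1 to 4 and 5 to 8 was tested as an interaction. Alternatives used edgeR 4.0.16 and DESeq2 1.42.0 on recovered reads. Deviations of same-numbered samples from their group means correlated at 0.152 to 0.303, with a mean of 0.226. Other numbers of the same set correlated at 0.199 on average. For 4 of the 8 *GFP*-NSPC samples the same-numbered *Dbx2*-NSPC sample gave the highest correlation. The replicate number is thus not shown to pair samples beyond their set. The replicate block and the same-number differences are given beside the main fit, which does not use pairing. No same-group libraries agreed within sampling noise. The scripts were tested on simulated data.

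The members and lists were chosen with earlier results of these data known, and 1 gene of the lists is not reported here and stays out of their counts. Named by rule were the members, *Dbx2*, up to 4 called genes of each list with the smallest p, list genes without overlap between the groups, and the 5 genes most like the member with the smallest p. All other list genes in the text were named after their values were seen. Positions are from GENCODE M21 (GRCm38), and start windows from RefSeq (GRCm38.p6), where *Bcl2l1*, *Bcl2l11*, *Bbc3* and *Bcl2* all matched by symbol. Plots used Python 3.11.15 and matplotlib 3.10.9.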

Additional observations from a re-analysis of the deposited data

Results flagged for a closer look

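Some log2 fold changes differed between the samples numbered 5 to 8 and those numbered 1 to 4 (limma interaction, adjusted p under 0.05 over all tested genes). Taken as the former less the latter, the difference was 0.87 for *Bcl2*, 1.45 for *Dbx2*, 1.19 for *Aldoc*, -0.68 for *Nes*, 1.495 for *Slc1a2*, 4.86 for *Rbfox3*, -1.62 for *Casp9* and 5.89 for *Dcx*. For *Dcx* and *Rbfox3* samples lie under 3 reads, so the size may depend on the pseudocount, which was not tested for them.

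Single samples stood apart from the rest of their group in 4 of 66 checks, made for 33 genes in both groups; chance alone marks about 1 in 20. *Pmaip1* was at 14.26 CPM in *Dbx2*-NSPC replicate 2, with the next at 6.74 CPM. *Dbx2* was at 232.13 CPM in *Dbx2*-NSPC replicate 1, with the next at 168.44 CPM. *Tnfrsf1a* was at 107.16 CPM in *GFP*-NSPC replicate 1, with the next at 66.56 CPM. *Fbxw7* was at 139.08 CPM in *GFP*-NSPC replicate 5, with the next at 122.94 CPM.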

How the results depend on the processing

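The count of 3 members called, all higher, was the same under 17 of 18 alternatives, which changed the pseudocount, the filter, the scaling, the trend, the pairing, the test or the samples. The exception was the mitochondrial share as a covariate, chosen after the data were seen, which called 1 member and 900 genes against 1982; the cause was not tested. With the set of numbers as a factor 3034 genes were called. The replicate block called 2723 genes and changed no call of a member; with it *Bcl2l1*, *Bcl2l11* and *Bbc3* had adjusted p-values of 0.00118, 7.0e-05 and 0.0114, and *Sox2* (lower) and *Foxj1* (higher), beside the genes given with their block values above, passed. *Bbc3* was not called in the samples numbered 5 to 8 alone, where *Bcl2* was. Signs turned only in members that were not called: *Bcl2* (-0.32) in the samples numbered 1 to 4, *Bad* (-0.016) and *Pmaip1* (-0.68) in those numbered 5 to 8, *Bak1* (0.020) without *GFP*-NSPC replicate 1, *Pmaip1* (-0.020) with quantile normalization, and *Mcl1* (-0.029) and *Pmaip1* (-0.48) with the mitochondrial covariate. *Bid* rested on 6 to 20 and *Pmaip1* on 2 to 47 reads a sample; how much of their spread is counting error was not tested.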
